A study of Mus musculus with 4 samples.

Results

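Neurexins, neuroligins and Lrrtm proteins hold the 2 sides of a synapse together. The genes described here are Nrxn2, Nrxn3, Nlgn1, Nlgn2, Nlgn3, Lrrtm1, Lrrtm2, Lrrtm3 and Lrrtm4, chosen by family name, and they are 9 of the 21938 protein-coding genes of the GENCODE M21 annotation used. Every peak that touched a gene body or the 20 kb on each side was taken. H3K27ac, an acetyl group on a histone H3 lysine that sits at promoters and enhancers in use, was measured by chromatin immunoprecipitation and sequencing (ChIP-seq). The tissue was the layer of hippocampus of adult male B6CASTF1/J mice aged 2 months, a hybrid of the C57BL/6J and CAST/EiJ strains, and the labels name no treatment. The 4 samples formed 1 group, in which tissue pool C and tissue pool D, each of 7 biosamples, were sequenced as 2 technical replicates per pool. Most values below come from 3 peak lists, the replicated list of both pools (88930 peaks) and the lists of pool C (94836 peaks) and pool D (63623 peaks). A further list, of both pools together (102643 peaks), was used for some counts. Each peak has 1 signal value of the authors' peak calling per list and therefore no SD, and with 2 pools and no second condition no test between groups was possible.

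Neurexins sit in the presynaptic membrane. Each neurexin gene makes a long alpha protein from an upstream promoter and a short beta protein from a promoter deep inside the gene, and the beta protein shares the last extracellular domain, the membrane segment and the cytoplasmic tail. Neuroligins and Lrrtm proteins are postsynaptic receptors that bind neurexins across the cleft: Nlgn1 is found mainly at excitatory synapses, Nlgn2 mainly at inhibitory ones, Nlgn3 at both, and the Lrrtm proteins at excitatory ones. Alternative splicing of the neurexins sets which partner they bind.

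The sequences of the neurexin and neuroligin starts are shown first, because the results turn on which start of a gene carried the mark. They are the RefSeq promoters of build GRCm38.p6, each 300 bases long and reaching 50 bases past a start, printed 5′ to 3′ on the gene's strand with every CG dinucleotide in capitals. The 3 of Nrxn3 are an alpha start at chr12:88794254-88794553, a second alpha start at chr12:88953140-88953439 and the beta start at chr12:89812233-89812532, all on the plus strand. A start is called alpha here if a coding transcript of 1000 or more residues begins at it. The 2 of Nlgn1, on the minus strand, are the 5′-most start at chr3:26331860-26332159 and the internal start at chr3:26153937-26154236.
Nrxn3 alpha start without a peak: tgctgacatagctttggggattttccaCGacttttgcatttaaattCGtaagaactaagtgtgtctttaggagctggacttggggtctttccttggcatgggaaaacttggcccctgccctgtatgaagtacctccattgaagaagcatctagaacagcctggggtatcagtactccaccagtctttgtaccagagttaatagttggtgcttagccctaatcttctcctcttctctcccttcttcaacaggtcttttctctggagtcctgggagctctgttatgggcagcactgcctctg
Nrxn3 alpha start with a peak: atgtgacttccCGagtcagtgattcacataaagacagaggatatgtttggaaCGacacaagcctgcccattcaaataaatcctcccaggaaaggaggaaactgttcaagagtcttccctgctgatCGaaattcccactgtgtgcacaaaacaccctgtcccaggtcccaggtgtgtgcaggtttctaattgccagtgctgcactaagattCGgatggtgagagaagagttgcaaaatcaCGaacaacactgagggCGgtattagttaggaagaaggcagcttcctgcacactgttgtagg
Nrxn3 beta start: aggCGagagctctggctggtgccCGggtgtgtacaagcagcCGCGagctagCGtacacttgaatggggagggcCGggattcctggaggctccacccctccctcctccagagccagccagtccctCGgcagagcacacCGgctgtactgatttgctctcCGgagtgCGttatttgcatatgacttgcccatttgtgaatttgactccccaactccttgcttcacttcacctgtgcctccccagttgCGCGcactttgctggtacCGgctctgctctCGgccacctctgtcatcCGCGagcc
Nlgn1 5′-most start: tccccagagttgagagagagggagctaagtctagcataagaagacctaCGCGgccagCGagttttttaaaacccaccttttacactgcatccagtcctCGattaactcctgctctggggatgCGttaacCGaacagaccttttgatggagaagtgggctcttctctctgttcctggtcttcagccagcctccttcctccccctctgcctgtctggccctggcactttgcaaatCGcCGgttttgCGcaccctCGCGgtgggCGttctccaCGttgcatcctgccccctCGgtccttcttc
Nlgn1 internal start: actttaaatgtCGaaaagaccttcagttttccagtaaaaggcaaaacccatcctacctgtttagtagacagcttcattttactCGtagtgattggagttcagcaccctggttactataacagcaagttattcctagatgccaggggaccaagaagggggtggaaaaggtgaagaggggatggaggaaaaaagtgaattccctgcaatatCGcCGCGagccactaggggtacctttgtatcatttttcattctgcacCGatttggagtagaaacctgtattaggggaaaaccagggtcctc

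The first Nrxn3 sequence held 2 CG dinucleotides, the second 6 and the beta sequence 16. Their observed over expected CpG ratios were 0.119, 0.353 and 0.588, against a median of 0.384 over the 32851 RefSeq promoters. Replicated peaks covered 0, 300 and 124 of their 300 bases. The order of CpG content was therefore not the order of the mark, since the beta sequence had the most CG dinucleotides of the 3 and the second alpha sequence the most peak. In Nlgn1 the 5′-most promoter had a ratio of 0.621 and the internal one 0.405, with 300 and 260 bases in replicated peaks. The stronger peak (22.3 against 11) lay over the sequence with fewer CG dinucleotides, 6 against 14, but covered fewer of its bases. Pool C peaks covered 300 bases of the 5′-most and 116 of the internal sequence, pool D peaks 300 and 80. The RefSeq start of the internal sequence is chr3:26153986, whereas the GENCODE start used below is chr3:26153307, so the sequence lies at the edge of the peak.

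RefSeq promoters were found for 6 of the 9 genes, 10 sequences in all, and none was in the table for Nrxn2, Nlgn3 and Lrrtm2. Of these 10 sequences, 2 had a CpG ratio of 0.6 or more, the 5′-most one of Nlgn1 and that of Nlgn2 (0.736), against 35.8% of all promoters. On either strand, GGGCGG, the core of a GC box, was in 3 of the 10 (the second Nrxn3 alpha promoter and those of Nlgn2 and Lrrtm1) and in 35.7% of all promoters. TATAAA was in 1, the first Lrrtm4 promoter, and in 13.6% of all. CANNTG, an E-box, was in 7 and in 72.3% of all. Of the 5 printed sequences, the second alpha and the beta promoter of Nrxn3 held it. TGACGTCA (1.79% of all), TGACTCA (5.2%) and GCGTGGGCG (0.612%) were in none of the 10. These matches describe letters in the windows and no binding was measured.

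All 9 genes carried the mark at a start. In the replicated list 9 of 9 had a peak within 1 kb of an annotated start, where 61.6% of all protein-coding genes did. The count was again 9 of 9 in the pool C list (62.3% of all genes), in the pool D list (57.9%) and in a list of both pools analysed together (62.5%). The strongest such peak had a signal between 10.5 (Lrrtm3) and 22.3 (Nlgn1), with a median of 16.1 over the 9 genes and of 13.8 over the 13524 genes with a promoter peak. The members lay above that median in 7 cases, Nrxn3 and Lrrtm3 being the other two. In 8 of 9 genes the peak was wider than the median of 1710 bp over those genes, Nlgn3 (1405 bp) being the exception. The tissue is a mixture of cells, so fewer cells of a type with the mark and less mark per cell cannot be told apart.

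Nrxn2, a neurexin gene of 125 kb on the plus strand (chr19:6418731-6544169), carried H3K27ac at both its alpha and its beta start. The main alpha start group, whose longest protein has 1703 residues, lay in a peak of 2227 bp at chr19:6417940-6420166. Its signal was 13.6 in the replicated list, 15.8 in pool C and 9.55 in pool D. The beta start, 78.9 kb into the gene and coding for 660 residues, lay in a peak of 8819 bp at chr19:6496874-6505692, with signals of 16.1, 20.0 and 11.6 in the same lists. Beta was above alpha in each of the 3, by 2.46 in the replicated list, 4.21 in pool C and 2.04 in pool D. The width of the beta peak was at the 98.8th percentile of the promoter peaks of all marked genes. In pool D 2 peaks lay within 1 kb of the beta start group, the stronger of 1992 bp. Peaks of pool D covered 91.1% of the replicated beta peak.

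Nrxn2 has 8 groups of starts in the annotation, and the remaining 6 differed widely. The second alpha group, 9.19 kb in and coding for up to 1710 residues, had no replicated peak, a weak one in pool C (signal 3.9) and none in pool D. Starts of non-coding transcripts 26.7 and 35.8 kb into the gene lay at peaks with replicated signals of 7.1 and 8.93, and the latter, at chr19:6447690-6455117, spanned 7428 bp. Pool C gave it 15.8 and pool D 6.55. A further non-coding start 98.5 kb in had a signal of 7.06, and those 54.4 and 72.1 kb in had no peak in any list. The mark on Nrxn2 was thus spread over the gene, with 28 replicated peaks in the gene and its flanks. In the flanks, 3 upstream peaks touched Rasgrp2, a gene for a Ras-family exchange factor, and each lay within 1 kb of a start of it. A peak at the 3′ end of Nrxn2 lay within 1 kb of a start of Slc22a12, a urate transporter gene. The alpha peak and an exon peak were likewise close to starts of the non-coding genes Gm14965 and Gm14964.

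Nrxn3, the longest member at 1610 kb (chr12:88722876-90334935, plus strand), had the opposite order when the strongest start classed as alpha was taken. Of its 6 groups of starts, 3 had a peak in the replicated list, 4 in pool C and 2 in pool D. Counting only the alpha and beta groups of Nrxn2 and Nrxn3 together, 4 of 7 had one in the replicated list, 5 in pool C and 3 in pool D. The strongest of Nrxn3 lay 231 kb into the gene and codes for 1100 residues, against 1571 for the longest coding transcript. It was classed as alpha by length alone, as the start of a coding transcript of 1000 or more residues. Whether it makes the long alpha protein was not tested. Its peak of 2538 bp at chr12:88952697-88955234 had signals of 10.6 in the replicated list, 11.8 in pool C and 7.72 in pool D. The start of the longest coding transcript, of 1571 residues and 71.6 kb in, had no peak in the replicated list or in either pool. The alpha start 470 kb in had none there either. Both are starts of transcripts in the annotation, and whether a promoter lies at them was not measured. The beta start, 1090 kb in and coding for 567 residues, had 2 small replicated peaks with signals of 4.4 and 3.24. Its strongest signal in pool C was 4.92, and the pool D list had no peak there. The beta minus alpha difference, taken from the strongest alpha start, was -6.18 in the replicated list and -6.83 in pool C. Set against the alpha starts 71.6 and 470 kb in, the beta start was the one with a peak in these lists. The order therefore depends on which annotated start is taken as alpha.

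At the 5′ end of Nrxn3, transcripts with no coding annotation (the longest open frame, of 1391 residues, belongs to a transcript marked for nonsense-mediated decay) start in a peak with a signal of 5.1 in the replicated list, 4.98 in pool C and 4.56 in pool D. The alpha start 231 kb in was above it in all 3 lists. The beta start was below it in the replicated list (4.4) and in pool C (4.92), and had no peak in pool D. A replicated peak is missing where the depth was too low as well as where the mark is absent, and the depth is unknown here, so the unmarked alpha start is one at which no peak was detected.

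**Figure D1:**
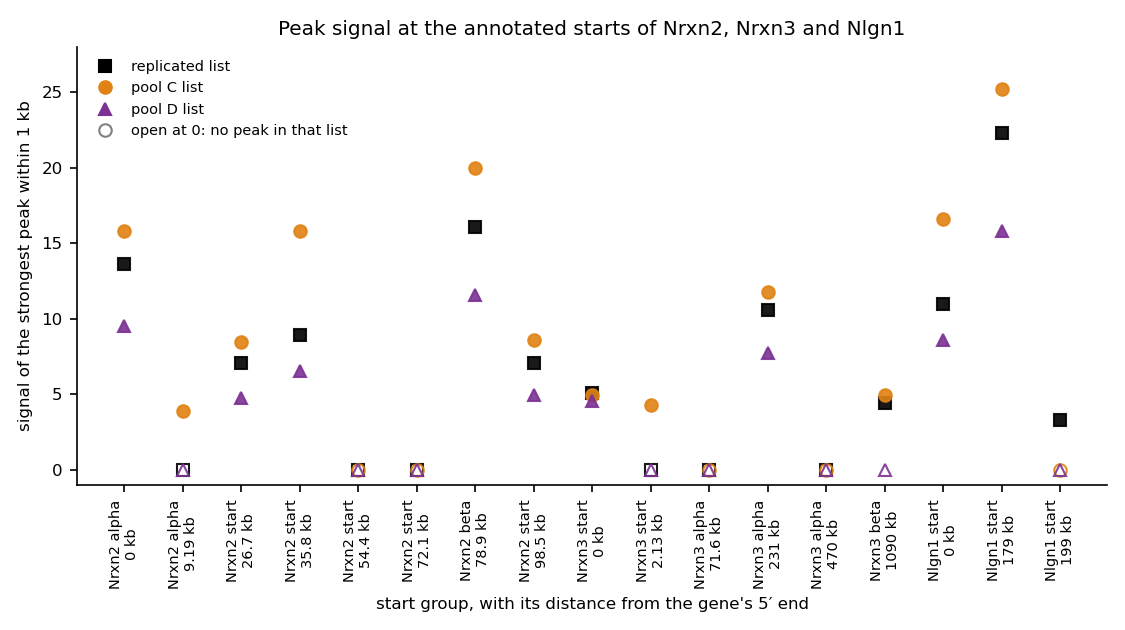
Signal of the strongest peak within 1 kb of each start group of Nrxn2, Nrxn3 and Nlgn1 (y axis, the authors' signal value) in the replicated, pool C and pool D lists, with the distance of the group from the gene's 5′ end in kb; open symbols at 0 mark a list with no peak. The beta start of Nrxn2 sits at 16.1 and its alpha start at 13.6 in the replicated list. In Nrxn3 the beta start sits at 4.4 and the strongest start classed as alpha by transcript length at 10.6.

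Nlgn1 (chr3:25426215-26332460, minus strand, 906 kb) also had its strongest peak at an internal start. The 5′-most group, coding for 843 residues, lay in a peak of 3874 bp at chr3:26329918-26333791 with signals of 11 in the replicated list, 16.6 in pool C and 8.58 in pool D. That peak lies also within 1 kb of a start of the gene A830092H15Rik, so it is not that of Nlgn1 alone. The internal start 179 kb in, coding for 814 residues, lay in a peak of 2409 bp at chr3:26151788-26154196 with signals of 22.3, 25.2 and 15.8, the highest promoter signal of the 9 genes in each list. A start 199 kb in, again coding for 843 residues, had a replicated peak at chr3:26134603-26135961 with a signal of 3.29, 869 bp from the start. Peaks of pool C (5.88) and pool D (4.09) overlapped that peak, covering 78.4% and 77.9% of it, but lay over 1 kb from the start.

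In the 3 members over 100 kb with several groups of starts, Nrxn2, Nrxn3 and Nlgn1, the strongest promoter peak was not at the first group. This held in the replicated list, in pool C and in pool D. Over all genes of more than 100 kb with several groups and a promoter peak, 23.9% had this order. Nlgn2 and Nlgn3, the shorter members with several groups, had their strongest peak at the first, which gives 3 of 5 against 15.8% of such genes of any length. This comparison was chosen after the values were seen. The genes were not matched by their number of start groups, which was 8 in Nrxn2, 6 in Nrxn3 and 3 in Nlgn1.

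Nlgn2 (chr11:69823122-69837784, minus strand, 14.7 kb) had its mark at the 5′ end. The peak over the first start spanned 3675 bp at chr11:69836077-69839751, with signals of 16.1 in the replicated list, 18.2 in pool C and 12.4 in pool D. It also reached a start of the neighbouring gene Tmem256, and the part each gene contributes was not tested. A second start 2.94 kb in had signals of 4.05 in the replicated list (percentile 46.0 of that list), 5.13 in pool C (54.7) and 3.15 in pool D (9.71). The rest of the gene, 10.6 kb or 72.1% of it, held no replicated peak. The other 2 peaks of its window lay at starts of Plscr3 (signal 12.7), a phospholipid scramblase gene, and Fgf11 (7.67), a fibroblast growth factor family gene.

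Nlgn3 (chrX:101299168-101325963, plus strand, 26.8 kb) was marked along most of its length. Its promoter peak at chrX:101299099-101300503 had signals of 15.8 in the replicated list, 18.7 in pool C and 10.1 in pool D, and a peak of 5362 bp over a non-coding start 15.2 kb in had 9.72, 11.7 and 6.29. Replicated peaks covered 66.0% of the gene and pool C peaks 72%, but pool D peaks 23.1%. Of the 12 replicated peaks in its window, 8 had at least 50% of their length in pool C peaks and not in pool D peaks. None of the 273 X-linked genes of its length class (20 to 100 kb) had a larger covered share, and their median was 1.49%. Of all X-linked genes 43.9% had a promoter peak, against 63.0% on the autosomes, and 75 had a higher promoter signal than Nlgn3.

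The strongest peak of the Nlgn3 window was not at its promoter. It lay beyond the 3′ end at chrX:101331688-101333854, with signals of 20.9 in the replicated list, 20.1 in pool C and 18.2 in pool D, each above the promoter peak of the same list. It had no annotated start of any gene within 1 kb, and the nearest other coding gene, Med12, a subunit gene of the Mediator complex, was 34223 bp away. Of the peaks in the 9 windows that were over 1 kb from every start, it had the highest signal.

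**Figure D2:**
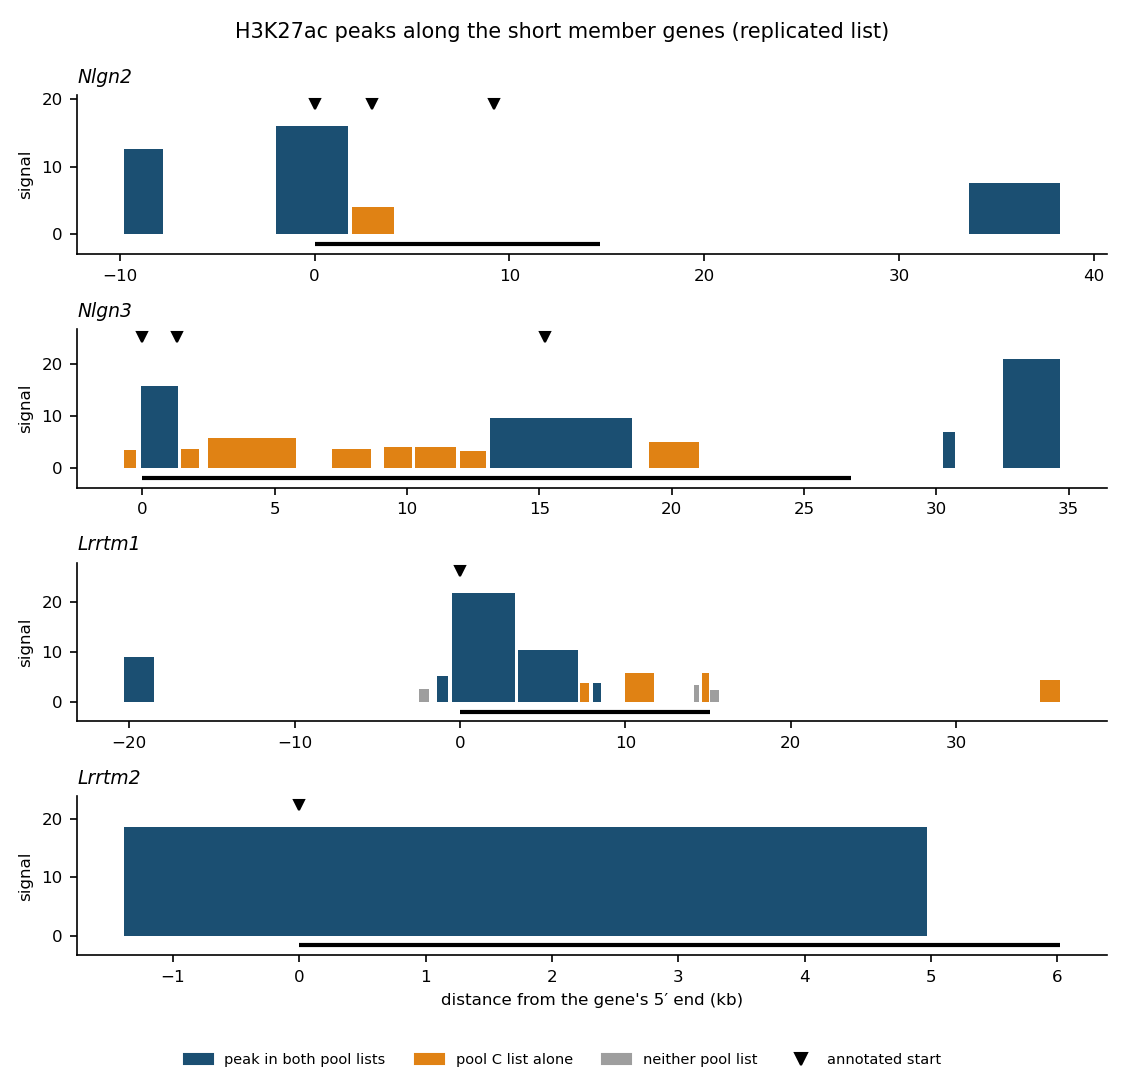
Replicated peaks of Nlgn2, Nlgn3, Lrrtm1 and Lrrtm2 drawn at their width (x axis, kb from the gene's 5′ end) and signal (y axis), with the gene as a black line, starts as triangles and colour for the pool lists that cover at least 50% of the peak. A single peak of 6358 bp covers most of Lrrtm2, and the tallest bar of the Nlgn3 panel, at 20.9, lies past the end of the gene.

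The 4 Lrrtm genes each had 1 group of starts, and each start was marked. Lrrtm1 (chr6:77242689-77257791, plus strand) had a promoter peak of 3855 bp at chr6:77242190-77246044, with signals of 21.7 in the replicated list, 21.3 in pool C and 14.3 in pool D. Lrrtm2 (chr18:35209003-35215024, minus strand), the shortest member at 6.02 kb, had a single peak in its window, 6358 bp wide, with signals of 18.6, 20.7 and 14.3. Lrrtm3 (chr10:63928472-64090277, minus strand) had the weakest promoter peak of the 9 genes, with 10.5, 11.7 and 7.13 and a width of 5161 bp. Lrrtm4 (chr6:80018877-80810143, plus strand) had 16.5, 19.1 and 11.7 over 3874 bp, and a peak close behind it lay within 1 kb of a start of Gm4409. The order of the 4 was the same in the replicated list and in pool C. In pool D Lrrtm1 and Lrrtm2 had equal rounded signals, with Lrrtm2 just ahead by rank in that list (2889 against 2898).

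Lrrtm1, Lrrtm2 and Lrrtm3 lie inside introns of alpha-catenin genes, which code for proteins that tie cadherins to actin, so each peak in their windows is also a peak of the host. Around Lrrtm1 the host Ctnna2 had 21.8 peaks per 100 kb inside the Lrrtm1 window and 5.66 outside it. Ctnna3 had 1.98 per 100 kb in the Lrrtm3 window and 0.364 in the rest of its 1570 kb, where its 9 body peaks included 4 of the Lrrtm3 window. In Ctnna1 the order of these peak counts was the other way, with 2.17 per 100 kb in the Lrrtm2 window and 5.56 outside. By signal it was not, since the Lrrtm2 window peak had 18.6 and the strongest Ctnna1 peak outside the window 9.6. The Lrrtm2 peak also holds a start of Ctnna1, and the shares of the 2 genes in it cannot be told apart.

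The 5 genes with the largest covered share and the 4 with the smallest were far apart. Replicated peaks covered 82.6% of Lrrtm2, 69.9% of Lrrtm1, 66.0% of Nlgn3, 38.3% of Nrxn2 and 26.3% of Nlgn2. In the 4 remaining genes the share was 5.7% for Nlgn1, 4.22% for Lrrtm3, 3.36% for Lrrtm4 and 3.14% for Nrxn3. Against genes of the same length class, the first 4 stood at percentiles from 94.4 to 99.1 and Nlgn2 at 81.5. The classes include genes without a promoter peak, whereas all 9 members had one, and marked genes alone were not compared. The last 4 lay near the middle of their classes, between the 47.4th percentile (Lrrtm3) and the 63.0th (Nlgn1). The median over the 9 genes was 26.3% in the replicated list, 26.2% in pool C and 12.3% in pool D, where the medians over all protein-coding genes were 3.85%, 3.99% and 1.92%.

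**Figure D3:**
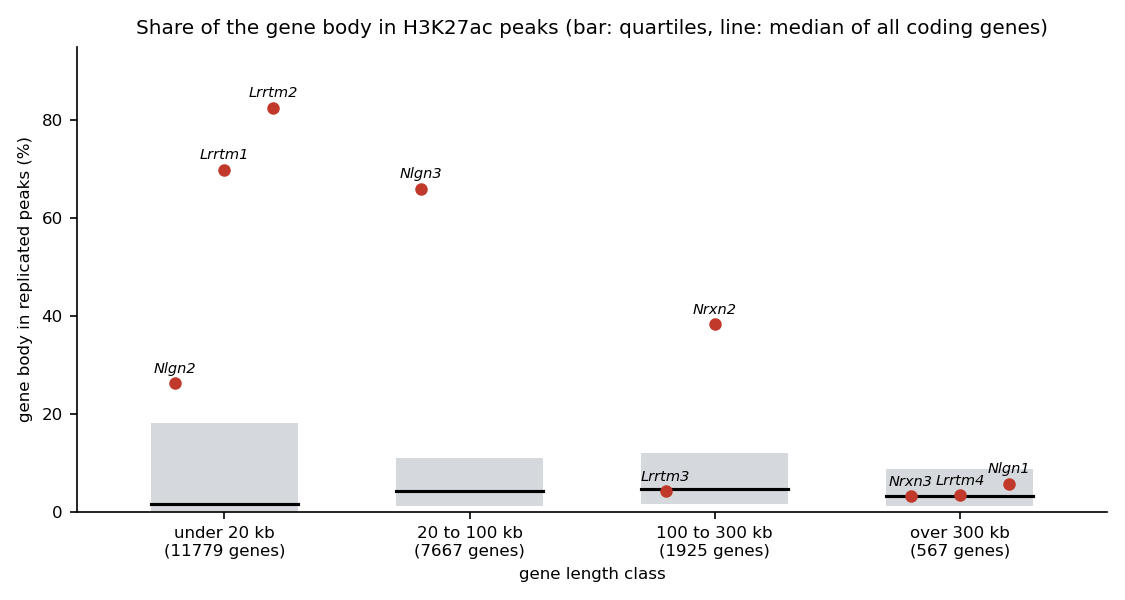
Percent of each member's gene body in replicated peaks (red points, y axis) by gene length class (x axis), with the quartiles (grey bars) and median (black line) of all protein-coding genes of the class. Lrrtm2, Lrrtm1, Nlgn3 and Nrxn2 stand far above the quartile bars, Nlgn2 (26.3%) above its bar, and Lrrtm3, Nrxn3, Lrrtm4 and Nlgn1 within theirs.

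The 9 windows held 189 replicated peaks, and most were intronic. By place, 25 lay within 1 kb of a start of the member, 141 (74.6%) in its introns, 8 in exons, 7 in the upstream flanks and 8 in the downstream flanks. Promoter peaks had a median signal of 8.93 and a median width of 2241 bp, intron peaks 3.73 and 739 bp. For comparison, all replicated peaks had medians of 4.28 and 947 bp. A start of another gene lay within 1 kb of 12 of the 189 peaks, and of another protein-coding gene in 8 cases.

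Fewer of these peaks than of the whole list were found in both pools. At least 50% of the peak lay in peaks of both pools for 65 of the 189 (34.4%), against 42.6% of all replicated peaks. By the same 50% rule pool C alone supported 82, pool D alone 2 and neither pool list 40. Such peaks can still overlap a peak of the other pool in part, and 93 were in both when 1 bp of overlap sufficed. Among the 156 peaks over 1 kb from any start, 43 (27.6%) were in both pools, against 32.9% of all such replicated peaks. Of the 25 promoter peaks 18 were in both pools, and of the 141 intron peaks 38 were. Pool D had fewer peaks over the whole genome, and the part of that in these counts was not tested.

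**Figure D4:**
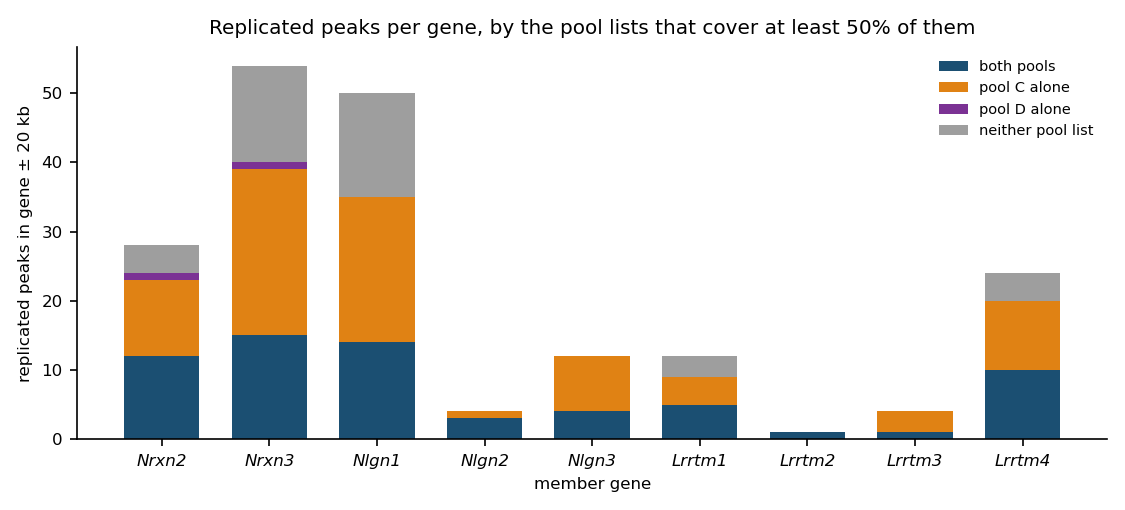
Number of replicated peaks in each gene and the 20 kb on each side (y axis), split by the pool lists that cover at least 50% of the peak. Nrxn3 has 54 peaks and Nlgn1 50, of which 15 and 14 are in both pools, and pool D alone supports 2 peaks in all.

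The long introns of Nrxn3 held 48 peaks, 12 of them in both pools, with a median signal of 3.57 and a median width of 674 bp. Of these, 2 exceeded the strongest promoter peak of the gene. The first, at chr12:89105653-89107826 and 384 kb into the gene, had signals of 12 in the replicated list, 14.2 in pool C and 10.1 in pool D, although pool D peaks covered 39.6% of it and it therefore counts as a pool C peak. The second, at chr12:89374872-89378540 and 654 kb in, had 11.2, 12.3 and 7.97. Between 739 and 946 kb from the gene's start lay a stretch of 207 kb without a replicated peak, the longest gap of the gene.

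Nlgn1 had 47 intron peaks, 11 in both pools, with a median signal of 3.35 and a median width of 711 bp. None exceeded its strongest promoter peak, at the internal start. The strongest, at chr3:25901921-25905337 and 429 kb into the gene, had signals of 13.6, 16.7 and 9.59 in the replicated, pool C and pool D lists, each above the peak of the 5′-most start in the same list. Further intron peaks 502 and 559 kb in had replicated signals of 8.63 and 8.56. The longest gap, of 92.4 kb, lay just upstream of the internal start, from 85.9 to 178 kb.

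Lrrtm4 had 22 intron peaks, 9 in both pools, with a median signal of 4.04 and a median width of 914 bp. Its strongest in the replicated list lay 772 kb in, at chr6:80789988-80791852 near the far end of the gene, with signals of 7.75, 8.82 and 5.66. In pool C the peak at chr6:80660430-80662523, 643 kb in, was stronger, with a signal of 9.4. It had 7.31 in the replicated list and 4.32 in pool D. Its longest gap was 118 kb, from 485 to 604 kb. Lrrtm3 was different: all 4 of its replicated peaks lay in the first 14.0 kb, and the remaining 148 kb, 91.3% of the gene, held none. Peaks over 10 kb from a start of the gene numbered 4.86 per 100 kb in Nlgn1, 2.85 in Nrxn3 and 2.78 in Lrrtm4, against a median of 2.44 over the 567 genes over 300 kb. Nrxn2 had 1.59 and Lrrtm3 0.618, both under the median of 2.26 over the genes of 100 to 300 kb. These values are per length of the whole gene. Nrxn2 has 15 distinct starts, and most of its body lies within 10 kb of one. Its low value therefore follows in part from the annotation and does not show that it had few peaks.

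**Figure D5:**
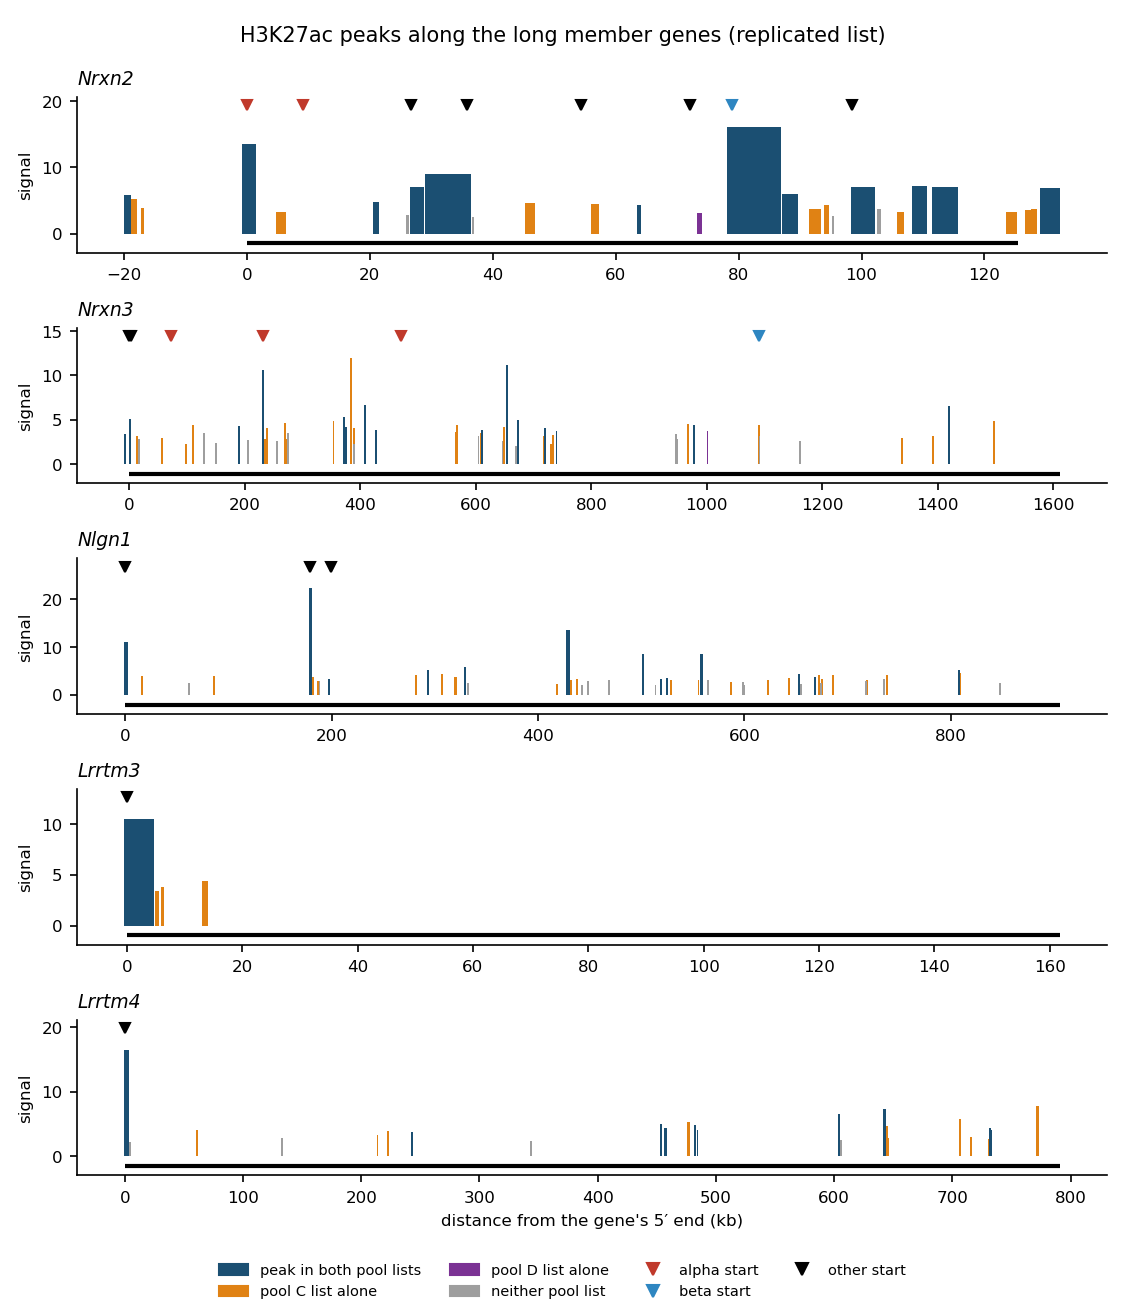
Replicated peaks along Nrxn2, Nrxn3, Nlgn1, Lrrtm3 and Lrrtm4 (x axis, kb from the gene's 5′ end; y axis, signal), drawn at their width or at least 0.2% of the gene's length, with starts as triangles and colour for the pool lists that cover at least 50% of the peak. Nlgn1 peaks highest 179 kb into the gene, Nrxn3 has its tallest bar 384 kb in, and Lrrtm3 has no bar after 14.0 kb.

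The strongest peaks away from the starts of any gene are shown for the 3 members with the highest such signal, as 300 bases of GRCm38 around the summit on the plus strand, with CANNTG matches in capitals. They were chosen after their values were seen, because they had the highest signals of the sites outside promoters. They are chr12:89106274-89106573 in a Nrxn3 intron (signal 12), chr3:25903425-25903724 in a Nlgn1 intron (13.6) and chrX:101332176-101332475 beyond the 3′ end of Nlgn3 (20.9).
Nrxn3 intron peak: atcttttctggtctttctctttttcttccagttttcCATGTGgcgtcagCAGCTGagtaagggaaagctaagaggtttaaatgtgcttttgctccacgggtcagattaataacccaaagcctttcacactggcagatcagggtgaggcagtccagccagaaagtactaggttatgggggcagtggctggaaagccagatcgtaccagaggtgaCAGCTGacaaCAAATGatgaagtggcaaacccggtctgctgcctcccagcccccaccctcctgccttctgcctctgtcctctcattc
Nlgn1 intron peak: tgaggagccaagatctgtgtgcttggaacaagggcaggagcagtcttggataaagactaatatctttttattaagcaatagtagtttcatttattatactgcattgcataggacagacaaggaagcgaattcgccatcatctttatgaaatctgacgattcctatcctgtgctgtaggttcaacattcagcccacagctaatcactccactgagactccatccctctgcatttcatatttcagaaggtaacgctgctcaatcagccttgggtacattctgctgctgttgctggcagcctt
Nlgn3 downstream peak: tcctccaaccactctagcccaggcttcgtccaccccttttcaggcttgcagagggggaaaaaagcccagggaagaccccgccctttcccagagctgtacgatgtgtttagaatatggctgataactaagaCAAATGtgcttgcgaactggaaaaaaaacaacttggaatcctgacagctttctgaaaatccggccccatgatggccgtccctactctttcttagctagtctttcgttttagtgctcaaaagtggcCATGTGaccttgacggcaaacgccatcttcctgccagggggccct

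The Nrxn3 window held 4 CANNTG matches, the Nlgn3 window 2 and the Nlgn1 window 0, and 78.9% of the summit windows of all 88930 replicated peaks held at least 1. GGGCGG, on either strand, was in the Nlgn3 window alone, and in 12.3% of all windows. TATAAA (14.5% of all windows), TGACTCA (5.24%), TGACGTCA (0.289%) and GCGTGGGCG (0.222%) were in none of the 3. The GC content was 51.0% in the Nrxn3 and Nlgn3 windows and 43.3% in the Nlgn1 window, with 4, 9 and 4 CG dinucleotides. None of the 6 motifs was in all 3 windows.

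Other genes of the same adhesion system were counted by role, from a list of 48 genes that does not use their values. In each list 42 of the 48 had a promoter peak, where over all protein-coding genes 61.6% did in the replicated list, 62.3% in pool C, 57.9% in pool D and 62.5% in the list of both pools together. The 6 without were 5 secreted ligands and Flrt1, an adhesion protein gene.

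Of the 8 secreted neurexin ligands and organisers 3 had a promoter peak, the lowest share of the 6 roles. C1ql3 (replicated signal 17.3) and C1ql2 (13.6), complement-like proteins that bind neurexins, were the strongest. Nxph1, a neurexophilin gene whose product binds alpha neurexins, had 3.21, under the median of all replicated peaks. Cbln1, Cbln2 and Cbln4, cerebellins that bridge neurexins to glutamate delta receptors, and Nxph3 and Nxph4 had no promoter peak in any list.

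Of the 16 other postsynaptic adhesion partners 15 were marked, with Lrrc4 (30.3) and Lrrc4b (24.6), netrin-G and LAR-type receptor ligand genes, the strongest. All 7 other presynaptic receptors were marked. Adgrl1 (21.5) and Adgrl3 (19.9), the latrophilins that bind teneurins and Flrt proteins, led them. Both inhibitors of neuroligin binding had a peak, Mdga2 with 28 and Mdga1 with 13.1.

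All 12 intracellular partners were marked, and the strongest were Gphn (26.6), the gephyrin scaffold of inhibitory synapses that binds Nlgn2, and Apba1 (22.8), an adaptor of the presynaptic side. All 3 regulators of neurexin splicing were marked, Khdrbs1 with 26.8, Khdrbs3 with 15.3 and Khdrbs2 with 7.01. The 9 members, with signals from 10.5 to 22.3, lay inside the range of these partners. Partners and members are different genes on the same lists, and no test of a difference was made.

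Marker genes of the cell types of hippocampus were mostly marked at their promoters. Promoter peaks were found at 8 of 8 genes of excitatory neurons, 4 of 4 of dentate granule cells, 4 of 4 of CA pyramidal cells, 6 of 6 of astrocytes and 6 of 6 of oligodendrocytes (5 in pool D). Of 7 interneuron genes 2 had one in the replicated list, 4 in pool C and 1 in pool D. Microglia had 4 of 6 (5 in pool C, 3 in pool D) and oligodendrocyte precursors 3 of 4 (4 in pool C, 2 in pool D). Endothelium had 4 of 4 and other tissues 1 of 6, Myh7, in each list. Over all protein-coding genes the share was 61.6% in the replicated list, 62.3% in pool C and 57.9% in pool D. The members' peaks could come from any of the marked cell types, and their part in the values above was not tested.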

How the data were processed

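H3K27ac ChIP-seq was measured in 4 samples, 2 technical replicates of each of 2 tissue pools. Per the labels, the deposited peak lists are on mm10 and have the narrowPeak layout. The authors made 1 replicated list over both pools, 1 list from their joined alignments and 1 list for each pool. The deposited signal per peak came from the authors' peak calling, on a scale that no label states, and was compared only within a list. Deposited −log10 q values served a stricter filter (5 or more) and nothing else, and the deposited summit is a distance in bases from the peak start. Aligner, peak caller, filters and versions: not given in the sources used here. Read totals were not analysed here, and each sample's depth is unknown.

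Genes and starts came from GENCODE M21 without the mitochondrial chromosome. All 350032 peaks of the 4 lists ended within their GRCm38 chromosomes. Starts of a gene within 1 kb of each other formed 1 group, and a promoter peak lay within 1 kb of a start. An alpha start begins a coding transcript of 1000 or more residues, and a beta start one of under 800 residues downstream of every alpha start. Named were all members, in each partner role the 2 genes with the strongest promoter peak and up to 5 without one, and neighbours or hosts with a start in a window peak. Nxph1, Khdrbs2, Med12 and Myh7 were named after their values were seen. The members and lists were chosen with earlier results of these data known. Overlap functions were tested on simulated data. Alternatives were the pool lists, the list of both pools together, a stricter q, flanks of 50 kb or none, promoter windows of 500 bp or 2.5 kb, 1 bp or reciprocal overlap, and peaks without other genes' starts. Python 3.11.15, numpy 2.4.6, pandas 2.3.3 and matplotlib 3.10.9 were used.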

Additional observations from a re-analysis of the deposited data

How the results depend on the processing

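Of 111 alternative values computed, 97 stayed within their limits and 14 moved. The limits were wide for counts: 132 window peaks in pool D against 189 stayed within them. A reversed direction could be recorded only for the beta minus alpha differences of Nrxn2 and Nrxn3, and 0 were reversed. Of 74 alternatives for single genes 13 moved. The median percent of the gene body in peaks ranged from 12.3 to 26.2 with 1 pool left out, against 26.3 with both, and the low value is that of the pool D list. The count of window peaks was 189, and it was 202 in pool C, 132 in pool D, 228 in the list of both pools together, 155 with −log10 q of 5 or more, 172 in gene bodies alone, 216 with flanks of 50 kb and 181 without peaks at starts of other coding genes. Peaks in both pools were 65, 93 when 1 bp of overlap sufficed and 48 with reciprocal overlap. Nrxn3 had 54 window peaks, and 31 in pool D. Nlgn1 had 50, and 32 in pool D. The difference between the beta and alpha starts of Nrxn3 has no value in pool D, where the beta start had no peak. The count of long genes whose strongest start is not the first was 3 in each list, an alternative chosen after seeing the data. Depth is unknown, 2 pools bound every statement on replication, and peak signals of 1 list cannot be set against those of another. No paired analysis was possible because the samples form 1 group.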
